A study of Mus musculus with 20 samples.

Results

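The 8 lymphomas described here carried the VavPBcl2 transgene and an empty vector, and they are 8 of the 20 samples of a mouse RNA-seq series that also holds 4 normal spleen samples and 8 VavPBcl2 lymphomas with Myc. They were taken by their label as VavPBcl2 lymphomas with vector, without use of any measured value, and no contrast with the other 12 samples was made. All 8 were on a C57BL/6 background, and the labels state neither age nor sex. Cells were enriched from mouse tumors with magnetic beads against B220 (CD45R), a surface protein of B cells, and RNA was taken without culture. Poly-A RNA was sequenced on Ion Proton instruments, and the 8 samples carry the instrument codes LEI, LUK, YOD and HAN. Only vector replicate 8 has the code HAN, whose part in its values was not tested. The sample titles carry 3 prefixes. Vector replicates 1 to 3 have the prefix AO55, replicates 4 to 6 the prefix AO56 and replicates 7 and 8 the prefix E205. The labels do not say what the prefixes stand for or whether the replicates came from separate animals, so each p-value here speaks of sample-to-sample spread, which may be technical. The 2 E205 samples also came from other sequencing runs than the 6 AO samples, so prefix and run cannot be told apart. Each of the 8 samples had a run of its own. The spread within the AO samples therefore cannot be told apart from run either.

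The VavP promoter drives a transgene in blood cells, and Bcl2 blocks programmed cell death. Mice of this kind accumulate B cells and can develop lymphomas that resemble germinal centre B cells. In a germinal centre, B cells carrying the repressor Bcl6 divide, mutate their antibody genes and receive help from T cells, and cells that leave can become antibody-secreting plasma cells, which express the joining chain Jchain. Myc, a transcription factor that drives growth and division, is switched on briefly when B cells receive help or a signal through their antigen receptor. A tumor enriched on B220 can also hold T cells, myeloid cells and red cell precursors, and their transcripts are counted with those of the lymphoma cells.

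Gene counts summed to between 28726309 and 56303148 reads per sample, out of 55320070 to 105127362 reads listed. Replicate 1 stood apart: 37.1% of its reads were counted in genes, against 51.9 to 54.9% in the other 7, and 31.3% were aligned to several places, against 15.4 to 23.9%. Transcripts encoded in mitochondrial DNA took 0.387 to 1.05% of gene counts in the AO samples, 8.63% in replicate 7 and 6.39% in replicate 8. Replicates 2 and 4 had Xist, the transcript of the inactive X chromosome, at 688 and 524 CPM (a gene's reads relative to all gene reads of the library) and the Y-linked gene Ddx3y at 1.36 and 0.451 CPM. Replicates 1, 3, 5, 6 and 7 had the reverse, with Xist at 2.12 to 11.3 and Ddx3y at 54.5 to 79.3 CPM. Replicate 8 had both, at 173 CPM for Xist and 73.3 CPM for Ddx3y. Values without replicates 1, 7 or 8 are given beside the results where leaving them out was tried.

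All 16 B-cell identity genes measured were present in all 8 samples, the lowest being Vpreb3 at 12.2 CPM in replicate 1. Cd79a, a signalling chain of the B-cell receptor, was counted at 985, 667, 1225, 1050, 794 and 1159 CPM in replicates 1 to 6 and at 1925 and 995 CPM in replicates 7 and 8. Ptprc, the gene of CD45, ranged over the 8 samples from 846 to 1351 CPM. Mouse Bcl2 ranged from 97.0 to 151 CPM. The labels do not say whether the transgene has the mouse sequence, so this count does not check it.

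In the 6 AO samples most genes were steady. The spread of each gene was taken as the standard deviation (SD) of its log2 CPM over those 6 samples, and 10578 genes averaged at least 5 CPM. Their median SD was 0.252, and 9573 of them (90.5%) had an SD under 0.5. An SD of at least 1 was reached by 168 genes (1.59%). The steadiest abundant gene was Pdxdc1, with an SD of 0.025 and a range of 58.2 to 61.0 CPM over the 6 samples. It was followed by Eif4a1, a helicase of translation initiation, Ganab, a glucosidase of the endoplasmic reticulum, Pmpca, a mitochondrial processing peptidase subunit, and Fip1l1, a polyadenylation factor, with SDs of 0.036, 0.038, 0.038 and 0.042.

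The E205 samples were the main axis of difference over all 8. Of the total variance of 10782 genes, 43.4% lay between the E205 and AO samples, 43.9% within the AO samples and 12.7% between the 2 E205 samples. On principal components of all 8, component 1 held 46.2% of the variance and placed replicates 7 and 8 at 62.0 and 47.5, against -38.7 to -4.02 for the AO samples. Component 2 held 18.2% and separated the 2 E205 samples from each other, at -23.4 and 38.4. Across genes, the Spearman correlation between an AO and an E205 sample had a median of 0.902, below the 0.931 of the E205 pair and the median of 0.956 between AO55 and AO56 samples.

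**Figure D1:**
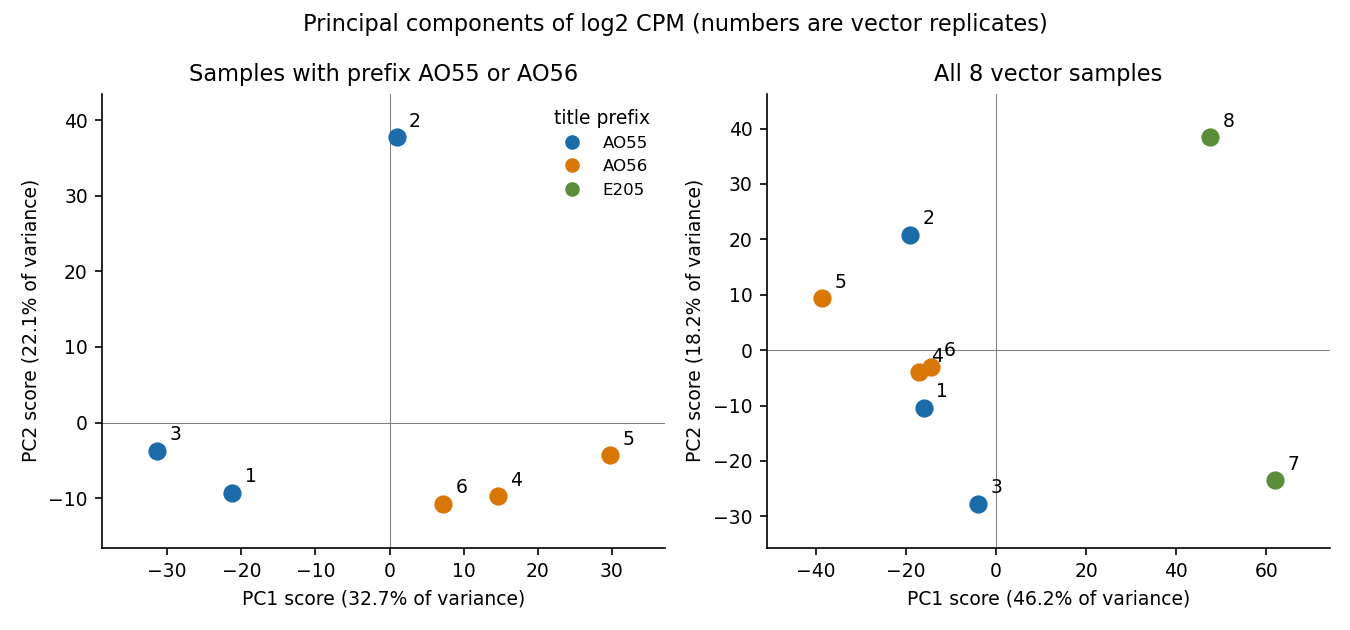
Principal components of log2 CPM, for the 6 AO samples alone and for all 8, with 1 point per sample and the share of variance on each axis. Within the AO samples replicate 2 stands alone on component 2, at 37.7, and over all 8 the E205 samples lie at 47.5 and 62.0 on component 1.

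Within the AO samples component 1 ordered the samples by prefix and component 2 did not. Component 1 of these 6 held 32.7% of the variance, placed the AO55 samples below the AO56 samples and ran from replicate 3 at -31.4 and replicate 1 at -21.2, through replicates 2, 6 and 4 at 0.94, 7.27 and 14.6, to replicate 5 at 29.8. Component 2 held 22.1% and set replicate 2, at 37.7, apart from the other 5, at -10.7 to -3.69. The difference between AO55 and AO56 made up 28.8% of the variance inside the AO samples on 1 degree of freedom, while 39.2% lay among the AO55 samples and 31.9% among the AO56 samples, on 2 degrees of freedom each. Extremes were spread over the samples: of the 168 genes with an SD of at least 1, replicate 1 was the highest in 47 and replicate 2 in 44, and replicate 5 was the lowest in 64 and replicate 4 in 33.

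Leaving aside sex-linked genes, antibody and T-cell receptor segments and genes without a usual symbol, the 12 genes with the widest spread were small or structural RNAs high in replicate 1, Afap1l1 and the myeloid genes Chil3 and Camp. Of the 168 genes, 54 were annotated as protein coding, 37 were immunoglobulin or T-cell receptor segments, 16 were small or structural RNAs and 59 had no annotation. The 5S ribosomal RNA gene n-R5s193 was counted at 280, 1.63, 41.4, 0.279, 0.330 and 0.276 CPM in replicates 1 to 6. The 5.8S ribosomal RNA n-R5-8s1 stood at 1350, 19.6, 458, 6.95, 29.2 and 12.5 CPM. Replicate 1 was the highest and replicate 3 the next in both, and the E205 samples lay at 0.272 and 0.651 CPM for n-R5s193 and at 3.55 and 21.5 CPM for n-R5-8s1. The RNA components of RNase MRP and RNase P, Rmrp and Rpph1, followed the same order, with SDs of 3.29 and 3.23, and so did Rn7s6 and Rn7sk with SDs of 3.22 and 2.49. Afap1l1, an actin-filament adaptor, was at 78.7 CPM in replicate 1 and between 0.0825 and 0.661 CPM in the other AO samples, and Lars2, a mitochondrial leucyl-tRNA synthetase, was at 22319 CPM in replicate 1 against 1575 to 3685 CPM in the other 7 samples. Small RNAs carry no poly-A tail as a rule and many have near-identical copies, and replicate 1 is also the sample with the largest share of reads aligned to several places, whose part in these levels was not tested. Without replicate 1 the SD was 3.02 for n-R5s193, 2.34 for n-R5-8s1, 2.02 for Rmrp and 1.81 for Rpph1. It was 1.85 for Rn7s6, 1.34 for Rn7sk and 0.95 for Afap1l1, against 3.32 with replicate 1 for Afap1l1. Rmrp, Rpph1, Rn7s6, Rn7sk and Afap1l1 reached the mean of 5 CPM only through replicate 1. In the other AO samples Rmrp lay at 0.104 to 4.05 CPM and Rpph1 at 0.220 to 6.41 CPM, so these SDs rest on low counts. Without replicate 1, 157 genes had an SD of at least 1, 135 of them among the 168, and the small RNAs among them were 7 in place of 16.

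To see which genes varied together, the 300 genes with the largest SDs were grouped by the correlation of their log2 CPM over the 6 AO samples. Of these, 187 fell into 7 groups of at least 15 genes. The largest group held 47 genes, with a median correlation of 0.92 between pairs, and held Myc. Of its genes 4 were on the immediate-early list (Atf3, Nr4a1, Fosb and Egr3) and 2 on the heat shock list (Hsph1 and Bag3). Its mean level relative to the AO mean was 1.22, 0.67 and 0.56 log2 units up in replicates 5, 2 and 4 and 0.70, 0.88 and 0.88 log2 units down in replicates 1, 3 and 6. Of the E205 samples, replicate 7 lay below all AO samples at -1.68 and replicate 8 lay within their range at 0.66. The pattern did not follow the prefixes, since AO55 and AO56 each had high and low samples.

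Myc itself was counted at 74.3, 182, 67.9, 129, 221 and 62.1 CPM in replicates 1 to 6 and at 47.5 and 152 CPM in replicates 7 and 8. Replicates 2, 4, 5 and 8 were high and the other 4 low, and the highest AO sample was 3.55-fold above the lowest. The genes most like Myc over the 6 AO samples, among the 725 other genes compared, were Grasp, Fosl2, Tgif2, Sik1 and Per1, with correlations of 0.989, 0.988, 0.987, 0.987 and 0.984. These correlations over 6 points share the same libraries, and the genes were picked as the closest, so they are a description. Fosl2 is an AP-1 transcription factor, Sik1 a kinase induced by cyclic AMP and Per1 a clock gene that is also induced by it. Sik1 stood at 72.5, 357, 71.8, 300, 720 and 62.1 CPM in replicates 1 to 6, and at 23.9 and 319 CPM in replicates 7 and 8.

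The immediate-early list as a whole behaved in the same way. Of its 13 members at 5 CPM or more, 5 had an SD of at least 1, beside the 1.59% of all genes, and the median correlation between pairs was 0.89, beside 0.00168 over all gene pairs. Nr4a1, a nuclear receptor induced by antigen-receptor signals, was at 83, 330, 70.3, 369, 590 and 72.2 CPM in replicates 1 to 6. Fosb, an AP-1 subunit, was at 721, 3522, 548, 1930, 2805 and 342 CPM. Egr1, an early growth response factor, was at 361, 1347, 259, 876, 574 and 221 CPM. In each of these 3 genes replicates 2, 4 and 5 lay above replicates 1, 3 and 6. That split was read from the expression of the group that held Myc and not from the labels, so it is a description. The stress factor Atf3 spread widest in the group, at 17.7, 90.4, 14, 92.6, 176 and 11.1 CPM, with 2.74 CPM in replicate 7 and 165 CPM in replicate 8. The group of 47 also held Irf4, which drives activated B cells towards plasma cells, at 219, 388, 146, 391, 800 and 196 CPM, and Tnfaip3, an inhibitor of NF-kB, at 229, 943, 186, 700, 940 and 198 CPM. The wider list of NF-kB targets did not share this pattern, with a median pair correlation of 0.19 and a median SD of 0.21 over 14 members.

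**Figure D2:**
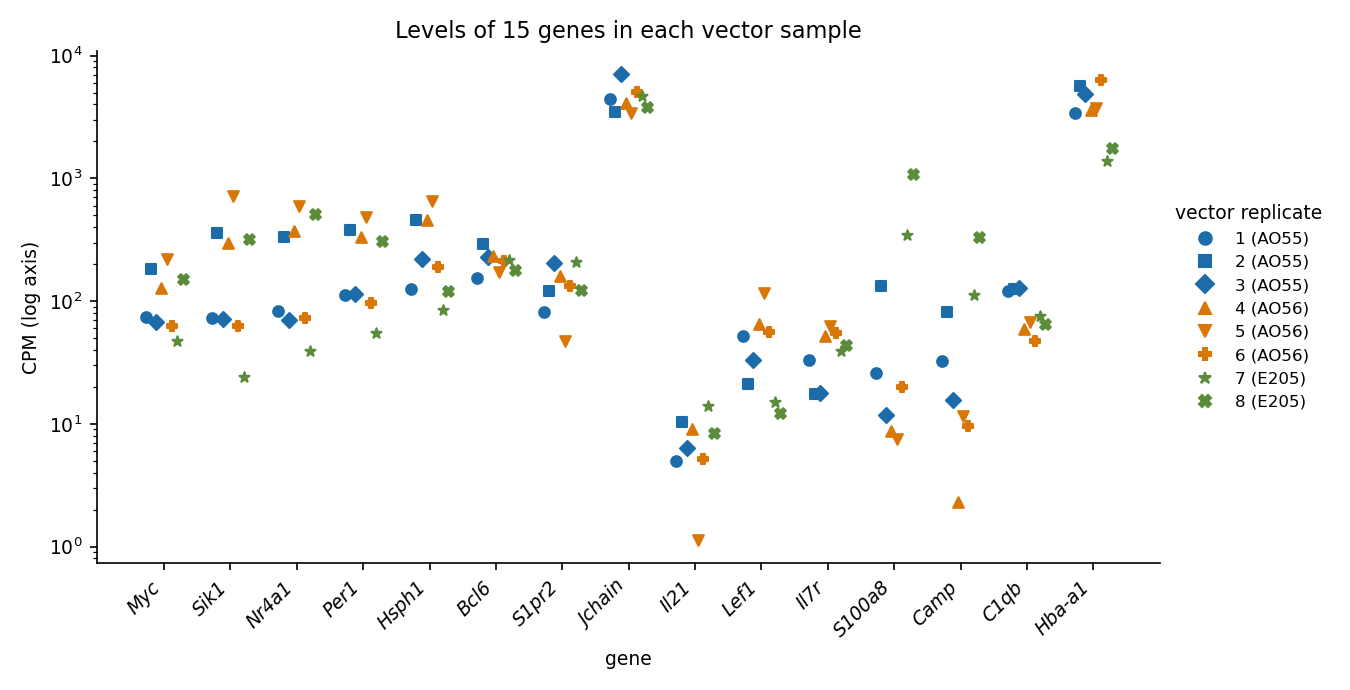
CPM of selected genes in each of the 8 samples on a log axis, with 1 point per sample and the prefix marked. Myc and the immediate-early genes share the same high samples (2, 4, 5 and 8), while Bcl6 stays between 154 and 291 CPM.

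The cyclic AMP response element TGACGTCA, to which CREB and ATF factors bind, was looked for in the promoters of this group, after its members had been seen. Promoters were 250 bases before to 50 bases after the start, from RefSeq on GRCm38.p6, searched on both strands, and 33 genes of the group had one. The element was found in 3 of the 33 (9.09%), in Maff, Plk2 and Nfkbid, while 2.03% of all promoters held it. Other elements were also searched in this group. The heat shock element GAANNTTC was in 6 of the 33 (18.2%, against 9.04% of all promoters). The interferon element GAAANNGAA was in 3 (9.09%, against 9.76%). The stretches are shown because they carry the element close to the start of genes that varied with Myc, and the capitals mark it. Maff, a small bZIP factor, holds it 29 bases before its start (chr15:79347451-79347519, plus strand), Plk2, a kinase induced by serum, 62 bases before (chr13:110394942-110395029, plus strand) and Nfkbid, a nuclear inhibitor of NF-kB, 51 bases before (chr7:30422315-30422402, plus strand). A match is a description of letters and does not show that a factor binds there.
Maff: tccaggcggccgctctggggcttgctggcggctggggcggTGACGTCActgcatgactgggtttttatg
Plk2: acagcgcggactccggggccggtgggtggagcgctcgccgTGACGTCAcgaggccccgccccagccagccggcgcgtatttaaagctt
Nfkbid: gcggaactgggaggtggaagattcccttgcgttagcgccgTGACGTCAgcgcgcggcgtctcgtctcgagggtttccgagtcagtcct

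Heat shock genes also varied together, but along another order of samples. Of the 12 members at 5 CPM or more, 9 were highest in replicate 5 and 7 were lowest in replicate 1, and the median pair correlation was 0.64. Hspa1b, an inducible Hsp70 chaperone, was at 182, 323, 877, 713, 1120 and 887 CPM in replicates 1 to 6 and at 159 and 7.53 CPM in replicates 7 and 8. Its neighbour Hspa1a was at 247, 449, 1141, 838, 1280 and 1038 CPM, and at 241 and 19.1 CPM. Both were low in replicates 1, 2, 7 and 8, and replicate 8 had less than any other sample. Hsph1, a nucleotide exchange factor for Hsp70, instead followed the Myc group, at 126, 461, 220, 454, 654 and 188 CPM. Hspa1a and Hspa1b are near-identical copies, so the split of reads between them is uncertain.

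The heat shock element, searched as GAANNTTC, was present in the promoters of 8 of the 11 list genes with a promoter (72.7%) and in 9.04% of all promoters. It reads the same on both strands and marks where Hsf1, the heat shock factor, can bind. The stretches are shown since Hspa1b and Hspa1a spread widest in the list and Hspd1 is among its 2 genes that differed between E205 and AO, and the capitals mark the element. That of Hspa1b (chr17:34959295-34959382, minus strand) has the same letters as that of Hspa1a (chr17:34972213-34972300, minus strand), with the element 104 bases before the start in both. The element of Hspd1, the mitochondrial chaperonin Hsp60, lies 139 bases before its start (chr1:55088024-55088111, minus strand) and is also the element of Hspe1, its partner on the other strand, 84 bases before the start of that gene.
Hspa1b: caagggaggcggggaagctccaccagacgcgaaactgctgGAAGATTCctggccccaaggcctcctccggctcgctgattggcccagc
Hspd1: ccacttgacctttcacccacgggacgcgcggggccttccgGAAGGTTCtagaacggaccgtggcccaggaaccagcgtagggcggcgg

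Most germinal centre genes varied together, high in replicate 3 and low in replicate 5. All 12 members at 5 CPM or more had an SD under 1, with a median SD of 0.65 against 0.252 for all genes. Their median pair correlation was 0.85. Of their pairs 83.3% were positively correlated, beside 50.1% of all gene pairs, so not every member ran with the others. Replicate 5 was the lowest for 10 of the 12 and replicate 3 the highest for 8, and the summed level of the list ran from 646 CPM in replicate 5 to 1701 CPM in replicate 3. S1pr2, a receptor that keeps cells in the germinal centre, was at 81, 120, 204, 161, 47.4 and 132 CPM in replicates 1 to 6 and at 208 and 123 CPM in replicates 7 and 8. Gcsam, a germinal centre signalling adaptor, was at 53.6, 89.2, 119, 67.8, 23.0 and 75 CPM, and at 138 and 81.6 CPM. In both genes replicate 7 lay above the AO range and replicate 8 within it. Leaving out each AO sample in turn kept the median pair correlation between 0.690 and 0.895.

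Bcl6 varied less than its companions. It was counted at 154, 291, 227, 234, 173 and 214 CPM in replicates 1 to 6 and at 214 and 179 CPM in replicates 7 and 8, an SD of 0.33. The genes most like it among 726 were Ntrk3, a neurotrophin receptor, Egln3, a HIF prolyl hydroxylase, Bmpr1a, a BMP receptor, Map2, a microtubule protein, and Ntng2, a netrin-G, with correlations of 0.984, 0.982, 0.973, 0.963 and 0.962. Egln3 and Bmpr1a belonged to a group of 29 genes highest in replicate 2 (1.22 log2 units above the AO mean) and lowest in replicate 5 (1.24 below it). The same group held genes of follicular helper T cells, the T cells that help germinal centre B cells. Il21, their main cytokine, was at 4.97, 10.3, 6.41, 9.14, 1.13 and 5.2 CPM in replicates 1 to 6, and the inhibitory receptor Pdcd1 was at 31.6, 56.8, 50.4, 34.9, 12.7 and 28.9 CPM. Tox2, a helper T-cell factor, was at 28.8, 95.6, 80.3, 56.0, 19.7 and 38.0 CPM. In all 3 replicate 5 was the lowest, but they were named because they fell into this group. Of the 12 activated and helper T genes at 5 CPM or more, replicate 5 was the lowest for 6 and replicate 3 for 5.

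Jchain was abundant in every sample, at 4398, 3447, 7072, 4141, 3420 and 5027 CPM in replicates 1 to 6 and at 4662 and 3787 CPM in replicates 7 and 8. Replicate 3 was the highest and replicates 2, 5 and 8 were low. Apool, a mitochondrial membrane protein, was closest to Jchain with a correlation of 0.915, and it was the only 1 of 726 genes above 0.9, while 23 lay under -0.9. The plasma cell list did not follow Jchain as a block: its 13 members had a median SD of 0.39 and a median pair correlation of 0.35. Across the 6 AO samples Myc and Jchain ran in opposite order, with Pearson's r of -0.83 (exact permutation p = 0.0292, adjusted over 11 relations p = 0.321) and Spearman's rho of -0.94 (exact permutation p = 0.0167, adjusted p = 0.183), two-sided. Without the 2 samples farthest from the median Myc level r was -0.59, and the relation did not pass the threshold after adjustment. Bcl6 had an r of 0.19 with Myc and of 0.01 with Jchain.

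A group of 26 genes that held Cd8a, Lef1 and Il7r was highest in replicate 5 (1.14 log2 units above the AO mean) and lowest in replicate 2 (1.16 below it). Cd8a, a chain of the co-receptor of cytotoxic T cells, was at 47.9, 20.8, 32.2, 61.4, 98.2 and 65.4 CPM in replicates 1 to 6. Lef1, a factor of immature and naive T cells, was at 51.7, 21.0, 33.4, 64.6, 116 and 56.2 CPM, and Il7r, the interleukin 7 receptor, at 33.3, 17.5, 17.7, 52.0, 62.3 and 55.1 CPM. The log2 difference of AO56 minus AO55 was 1.13 for Cd8a, 1.13 for Lef1 and 1.28 for Il7r (edgeR adjusted p = 0.544, 0.552 and 0.448). Between these prefixes edgeR called 0 genes and DESeq2 called 102. Of the 16 T-cell markers at 5 CPM or more, 9 were highest in replicate 5 and 9 lowest in replicate 2, and their summed level ran from 1457 to 2326 CPM. In such bulk samples fewer cells of a type and less RNA per cell cannot be told apart. Of the 11 mature follicular genes at 5 CPM or more, replicate 5 was the highest for 4, replicate 4 for 3 and replicate 1 for 2. Their median pair correlation was 0.42. From this list the receptor Ccr7, highest in replicate 5, stood at 135, 169, 104, 302, 403 and 197 CPM. S1pr1, the receptor for leaving lymphoid tissue, was also highest there, at 202, 140, 156, 310, 432 and 335 CPM.

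Neutrophil genes spread widely and together within the AO samples. Of the 9 members at 5 CPM or more, 7 had an SD of at least 1, the median SD was 1.23 and the median pair correlation 0.90. S100a8, a calcium-binding protein of neutrophils, was at 25.7, 133, 11.7, 8.82, 7.52 and 20.1 CPM in replicates 1 to 6 and at 347 and 1083 CPM in replicates 7 and 8. Camp, an antimicrobial peptide of neutrophil granules, was at 32.3, 81.9, 15.6, 2.32, 11.5 and 9.57 CPM, and Chil3, a chitinase-like protein of myeloid cells, at 16.5, 87.9, 5.06, 4.08, 3.48 and 14.6 CPM. Replicate 2 was the highest AO sample in all 3, and without it 1 of the members reached an SD of 1. The summed level of the list was 83.5 to 1018 CPM in the AO samples and 1869 to 7039 CPM in the E205 samples.

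**Figure D3:**
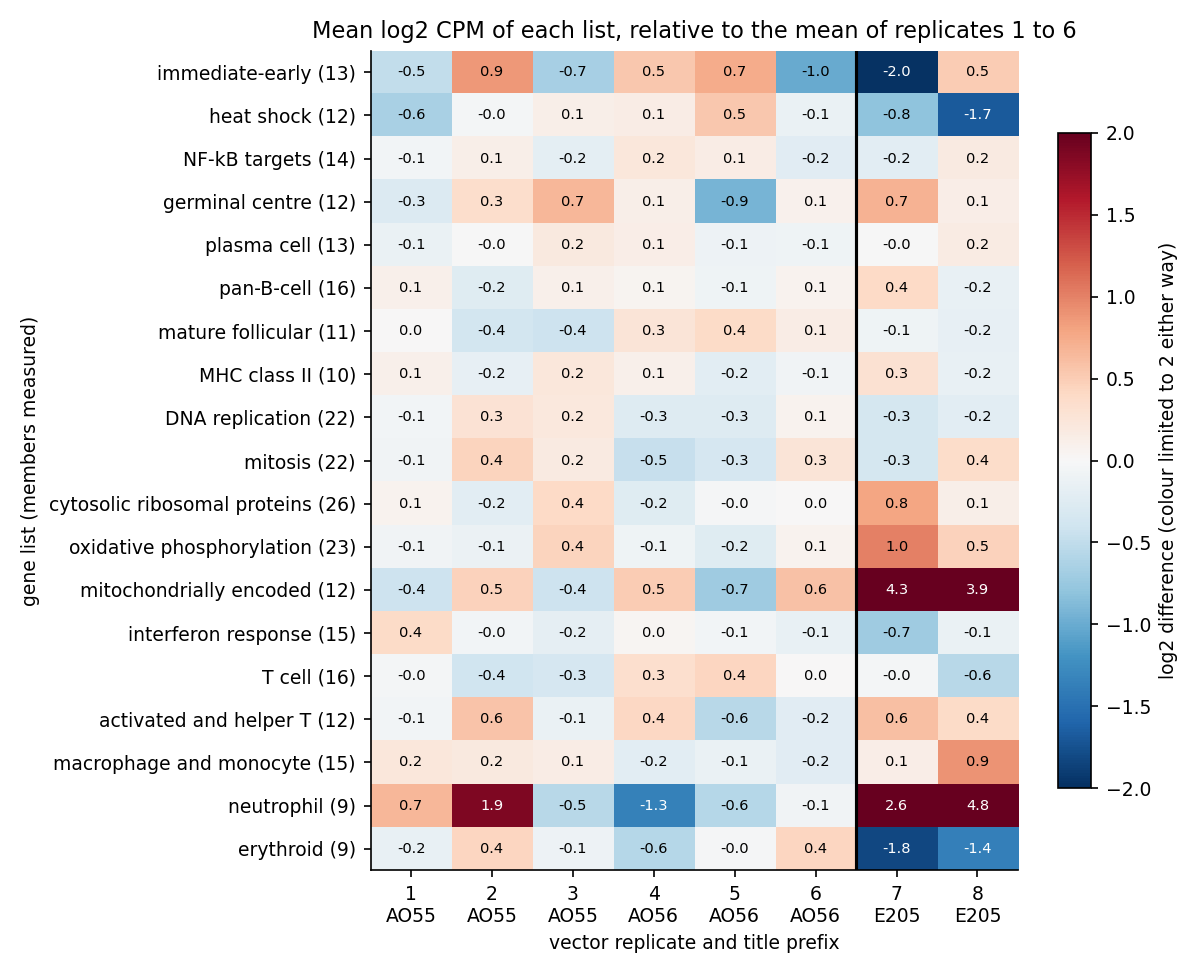
Mean log2 CPM of each gene list in each sample, relative to the mean of the 6 AO samples. The immediate-early list is 0.9 up in replicate 2 and 1.0 down in replicate 6, the neutrophil list spans -1.3 to 1.9 in the AO samples and reaches 4.8 in replicate 8, and the mitochondrially encoded list is 3.9 and 4.3 up in the E205 samples.

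Proliferation genes varied in step. All 22 mitosis genes at 5 CPM or more had an SD under 1, with a median of 0.38, above the upper quartile of all genes (0.351). Of their pairs 100% were positively correlated, and the median correlation was 0.81. Mki67, the Ki-67 antigen of dividing cells, was at 539, 905, 420, 347, 578 and 756 CPM in replicates 1 to 6 and at 207 and 739 CPM in replicates 7 and 8. Top2a, the topoisomerase of dividing cells, was at 200, 302, 219, 167, 113 and 215 CPM in replicates 1 to 6. Replicate 2 was the highest for 13 of the 22 and replicate 4 the lowest for 15. The 22 DNA replication genes followed with a median SD of 0.31 and a median pair correlation of 0.64. Other lists were close to the level of all genes: ribosome biogenesis (median SD 0.20, median pair correlation 0.05), cholesterol synthesis (0.22 and 0.07) and targets of p53 (0.29 and -0.01). The mitochondrially encoded genes varied together, with a median pair correlation of 0.92, and their median SD of 0.68 was above the 0.252 of all genes.

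The antibody segments in use differed from sample to sample. Of the named heavy-chain V segments, the largest took 15.4% of the counts in replicate 1 (Ighv14-4), 25.7% in replicate 2 (Ighv6-3), 32.5% in replicate 3 (Ighv6-6) and 81.9% in replicate 4 (Ighv7-1, Wilson 95% interval 81.7 to 82.1%). In replicates 5 to 8 it took 17.0, 29.0, 28.9 and 24.6%. Among the kappa V segments Igkv5-39 took 72.4% in replicate 4 and 57% in replicate 5, and 18.1 to 27.2% in replicates 1, 3, 6, 7 and 8, while in replicate 2 Igkv3-7 was the largest with 27.9%. V segments are close copies of each other and segments without a symbol were left out, so these shares hold over named segments only, and intervals cover counting error only.

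The heavy-chain constant genes show which antibody class was transcribed. Ighm, the IgM constant gene, was at 15706, 5240, 12560, 19095, 7948 and 8298 CPM in replicates 1 to 6 and at 13140 and 22849 CPM in replicates 7 and 8. Shares were taken over 6 constant genes, Ighm, Ighg1, Ighg2b, Ighg2c, Ighg3 and Ighe, and those of IgD and IgA are not in the total. Switched classes took 53.1, 87.3, 68.3, 43.3, 57.2, 63.2, 61.4 and 60.1% of these counts in replicates 1 to 8. Ighg1, of IgG1, made up 36.1% in replicate 2 and 2.83 to 12.4% in the other 7. Ighg3, of IgG3, made up 17.1% in replicate 8 and 0.171% in replicate 5. All samples held IgM together with several IgG classes, and Ighg2c was the largest switched class in 7 of the 8.

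**Figure D4:**
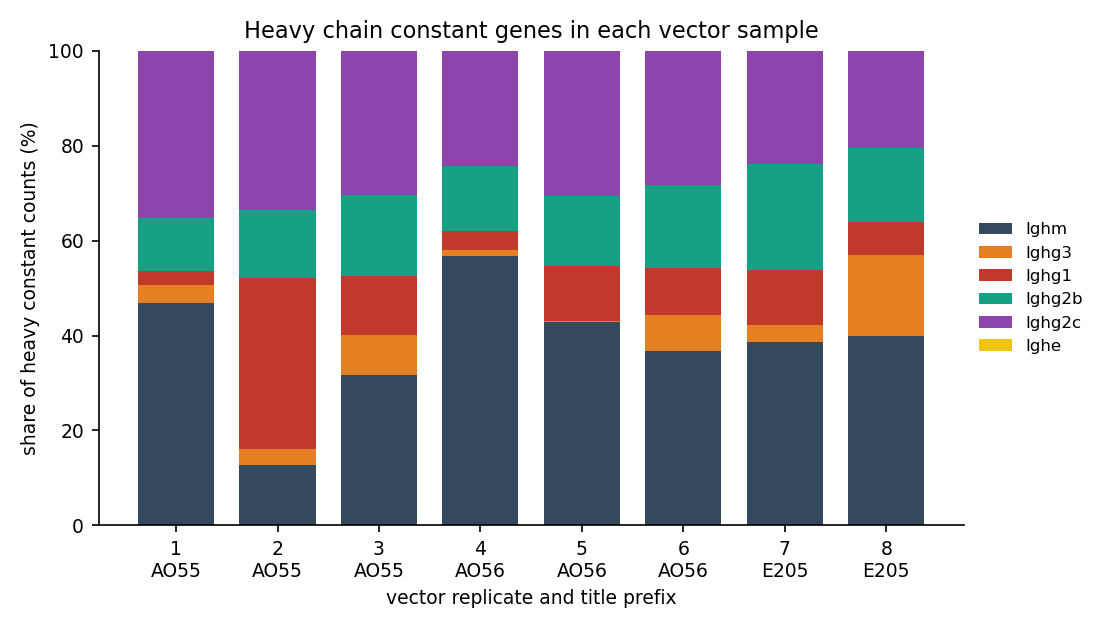
Share of each heavy-chain constant gene in the counts of the 6 genes shown, in percent, with 1 bar per sample starting at 0. Replicate 2 has the smallest IgM share, 12.7%, and replicate 4 the largest, 56.7%.

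Between the AO55 and AO56 samples (3 against 3), edgeR's quasi-likelihood test with Benjamini-Hochberg adjustment called 0 of 15877 genes (0%), with 1252 at an unadjusted p under 0.05, while DESeq2 called 102. The smallest adjusted p was 0.339, for C1qb, a complement component made by macrophages, at 122, 126 and 128 CPM in AO55 and at 59.1, 67.8 and 47.4 CPM in AO56, a log2 difference of -1.14 ± 0.168 (SE, n = 3 and 3, edgeR). C1qb was picked for the smallest p, so the lack of overlap between its groups adds nothing further. S1pr1 differed by 1.09 on the log2 scale and Cd5l, another macrophage gene, was lower in AO56, both with an adjusted p of 0.421 by edgeR. On simulated counts of this comparison the test recovered 42% of genes changed 2-fold and 95% of those changed 4-fold. It also called 16 unchanged genes, of 15590 genes run. The changed genes were drawn from those of at least 5 CPM, so recovery at lower counts was not tested.

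The E205 samples (n = 2) differed from the AO samples (n = 6) in 2721 of 17202 genes tested, by edgeR's quasi-likelihood test at an adjusted p under 0.05. Of all genes, 9.72% were higher in E205 (1672) and 6.10% lower (1049), and 1357 of the higher and 281 of the lower genes differed by at least 2-fold. Both counts rest on the 2 E205 samples: 885 genes were called without replicate 7 and 1410 without replicate 8, where the remaining sample is assumed to vary like the others. Of the higher genes, 698 were annotated as pseudogenes, 35.5% of the 1967 pseudogenes tested, while 805 of 13380 protein-coding genes (6.02%) were higher and 1024 (7.65%) lower. Without replicate 7 the higher pseudogenes were 297 and without replicate 8 they were 427. Pseudogenes share reads with their parent genes, so their counts are uncertain.

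The mitochondrially encoded genes, which code for subunits of the respiratory chain and ATP synthase, gave a difference that was called in every setting run. Of the 13 tested, 12 were higher in E205, with a median log2 difference of 3.84, and the 12 were called without replicate 7 and without replicate 8 alike. mt-Atp8 was at 24.3 to 99.7 CPM in the AO samples and at 1742 and 1168 CPM in replicates 7 and 8, a log2 difference of 4.93 ± 0.44 (SE, n = 2 and 6, edgeR adjusted p = 0.000156). mt-Nd2 differed by 4.39 (adjusted p = 0.00013, edgeR). The list made up 3037 to 7926 CPM in the AO samples and 62191 to 76783 CPM in the E205 samples.

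Nuclear genes of the respiratory chain and of the ribosome were also higher in E205, by less. Of 24 nuclear oxidative phosphorylation genes 13 were higher and 0 lower, beside 9.72% and 6.10% of all genes. Their median log2 difference was 0.75. Ndufa4, a respiratory chain subunit, was at 18.7, 20.0, 24.5, 22.9, 17.9 and 27.1 CPM in replicates 1 to 6 and at 75.8 and 51.4 CPM in replicates 7 and 8. Of 26 ribosomal protein genes 11 were higher and 0 lower. Rplp1, of the ribosomal stalk, was at 401 to 568 CPM in the AO samples and at 1172 and 843 CPM in E205, a log2 difference of 1.15 ± 0.18 (SE, n = 2 and 6, edgeR adjusted p = 0.00359). Replicate 7 was the higher of the E205 pair in both genes. Without it 3 oxidative phosphorylation genes and 1 ribosomal protein gene were called, and without replicate 8 the counts were 10 and 10. The ribosomal protein count was also lower, at 7, without replicate 6.

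Neutrophil genes were higher in E205 for all 14 tested, beside 9.72% of all genes. Their median log2 difference was 3.63, but the calls rest on replicate 8. S100a8, with the values above, differed by 4.37 ± 0.92 (SE, n = 2 and 6, edgeR adjusted p = 0.013), and Csf3r, the receptor of granulocyte colony-stimulating factor, was at 7.54 to 18.9 CPM in the AO samples and at 27.5 and 279 CPM in replicates 7 and 8. Without replicate 8, 1 of the list was called, and without replicate 7, 13. DESeq2 called 8 and gave no adjusted p for some members, S100a8 among them. Vcan, a matrix proteoglycan of monocytes, had the largest positive difference of the called genes named here and stood at 1.32 and 52.2 CPM in replicates 7 and 8, and Ifitm1, an interferon-induced membrane protein, stood at 2.92 and 84.2 CPM. Without replicate 8 the adjusted p was 0.0747 for S100a8, 0.126 for Csf3r, 0.227 for Vcan and 0.416 for Ifitm1 (edgeR). Of 16 macrophage and monocyte genes, 5 were higher. Lyz2, the lysozyme of myeloid cells, was at 134 to 334 CPM in the AO samples and at 639 and 1484 CPM in E205, and Ccr2, a monocyte chemokine receptor, at 3.61 to 14.1 CPM against 22.1 and 116 CPM. The macrophage count was 5 without replicate 7 and 3 without replicate 8, where Ccr2 lost its call (adjusted p = 0.0767, edgeR).

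Red cell genes were lower in E205 in a larger share than the 6.10% of all genes. Of 9 erythroid genes tested, 7 were lower and 0 higher, with a median log2 difference of -1.55, and the summed level of the list was 5924 to 10684 CPM in the AO samples and 2116 to 3027 CPM in E205. Alas2, the enzyme that starts haem synthesis in red cell precursors, was at 588 to 1048 CPM in the AO samples and at 130 and 160 CPM in replicates 7 and 8, a log2 difference of -2.46 ± 0.27 (SE, n = 2 and 6, edgeR adjusted p = 0.000465). Car1, a carbonic anhydrase of red cells, was at 35.4 to 138 CPM against 12.5 and 8.76 CPM. The 10 genes with the largest negative differences also held Bpgm, the red cell enzyme that makes bisphosphoglycerate (-2.53), the red cell pyruvate kinase gene Pklr (-3.75) and the red cell spectrin Sptb (-2.37). Without replicate 7 the erythroid calls were 2 and without replicate 8 they were 6, and Sptb lost its call without replicate 7 (adjusted p = 0.146, edgeR) and, narrowly, without replicates 1, 5 or 6 (up to 0.0523).

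Lymphoid and stress genes differed in smaller numbers. Of 14 heat shock genes 2 were lower in E205 by edgeR and 8 by DESeq2. Over all genes edgeR called 6.10% lower, and DESeq2 called 1864 of 17735 lower. Hsp90aa1, the inducible Hsp90, was at 522, 598, 607, 601, 720 and 490 CPM in replicates 1 to 6 and at 276 and 167 CPM in replicates 7 and 8, a log2 difference of -1.42 ± 0.24 (SE, n = 2 and 6, edgeR adjusted p = 0.00458), and Hspd1 fell by 0.82 (adjusted p = 0.0171, edgeR). For Hspa1b the log2 difference was -3.04 ± 1.06 (SE, n = 2 and 6, edgeR adjusted p = 0.0761). The heat shock count was 4 without replicate 1 and 1 without replicate 8, and Hspd1 lost its call without replicate 7 (adjusted p = 0.0955) and without replicate 8 (0.112, both edgeR). Rsad2, an antiviral protein induced by interferon, was at 97.5 to 213 CPM in the AO samples and at 19.9 and 40.3 CPM in E205 (log2 difference -2.27, edgeR adjusted p = 0.00428). It kept its call on leaving out each of the 8 samples, while the interferon list, with 3 of 16 genes lower and 0 higher, had 1 call without any of replicates 1, 5, 7 or 8. The interferon element, searched as GAAANNGAA on both strands, was in the promoters of 10 of 13 interferon genes (76.9%) and in 9.76% of all promoters.

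B-cell genes mostly did not pass the test between E205 and AO, where 9.72% of all genes were called higher and 6.10% lower. Of the 16 pan-B-cell genes 1 was higher, Vpreb3 (1.42, edgeR adjusted p = 0.00591). In the same list 1 was lower, the B-cell identity factor Pax5, at 227 to 301 CPM in the AO samples and at 163 and 156 CPM in E205. Sdc1, the plasma cell marker CD138, was lower (-1.01, adjusted p = 0.00978), and Mzb1, an antibody-folding chaperone, was higher (1.03, adjusted p = 0.0433, both edgeR). Without replicate 7 none of these 4 genes was called, with an adjusted p of 0.116 for Vpreb3, 0.0942 for Pax5, 0.104 for Sdc1 and 0.33 for Mzb1. Without replicate 8 it was 0.083 for Pax5 and 0.059 for Mzb1, and Mzb1 kept its call in 1 of the 8 fits that leave out a sample (edgeR). Of 12 marginal zone and B-1 genes 5 were higher, Plac8, Cd9, S1pr3, Zbtb32 and Mzb1, but 1 was called without replicate 7 and 0 without replicate 8. Of the 13 germinal centre genes 0 were called by edgeR or by DESeq2, with 1 at an unadjusted p under 0.05 by edgeR. The log2 difference was -0.29 ± 0.56 for Myc (adjusted p = 0.756), -0.13 for Bcl6 (adjusted p = 0.732) and -0.12 for Jchain (adjusted p = 0.809, SE, n = 2 and 6, edgeR).

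**Figure D5:**
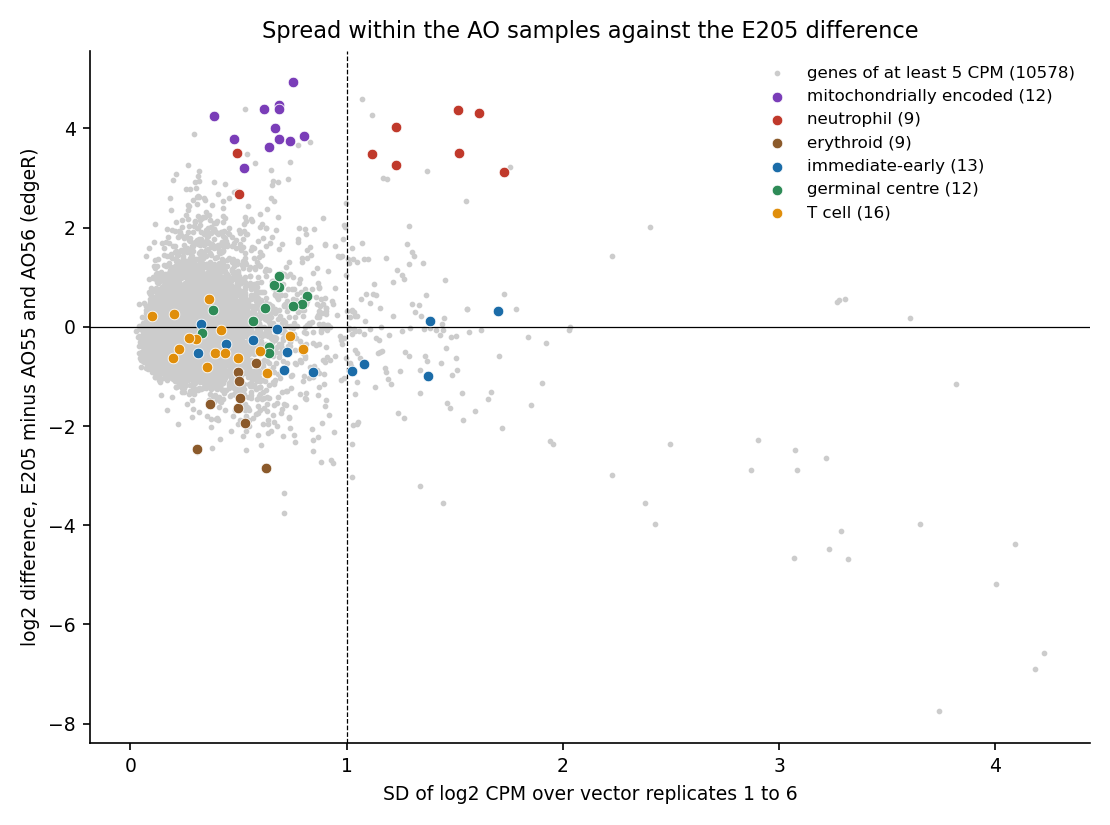
SD of log2 CPM over the 6 AO samples (horizontal axis) against the log2 difference of E205 minus AO (vertical axis), with 1 point per gene. The mitochondrially encoded genes combine a large difference with an SD below 1, 7 of the 9 neutrophil genes have an SD of at least 1 and a difference above 3, and Myc has an SD of 0.78 with a difference of -0.29.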

How the data were processed

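Raw read counts per Ensembl gene were deposited by the authors for 8 vector lymphomas, made with BWA 0.7.5a, Picard 1.119 and HTSeq on mm9 (NCBIM37), per the submitters' processing notes. Of 37620 genes, 32897 had a symbol in GENCODE vM21 (GRCm38), used for names and biotypes only. The 5 lines that name no gene stayed out of library sizes. Log2 CPM was computed with edgeR 4.0.16 (TMM scaling, prior count 2) in R 4.3.3. The E205 and AO samples, and AO55 and AO56, were compared with edgeR's quasi-likelihood test after filterByExpr, with Benjamini-Hochberg adjustment over all genes tested at 0.05; alternatives included DESeq2 1.42.0, other filters and leaving out each sample. On simulated counts of E205 against AO, 25% of genes changed 2-fold and 93% of those changed 4-fold were recovered, all drawn from genes of at least 5 CPM. In that simulation 6 unchanged genes were called, of 16823 genes run. Genes with similar profiles were grouped by average linkage on 1 minus r, at a height of 0.3.

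Members and gene lists were chosen with earlier results of these data known. Genes were named by rule: markers, the 12 largest SDs, the 10 largest called differences each way with no overlap, the 5 most like each marker, list members with the largest SD or smallest p, and the 5 steadiest, leaving out antibody segments and genes without a usual symbol. Others named, such as Sik1, Atf3, Irf4, Tnfaip3, Lars2 and Csf3r, were chosen after their values were seen. Some genes under the rule are not reported here. The AO55 and AO56 title numbers 2 and 5 are shared, and deviations of same-numbered samples correlated at -0.029 and 0.057.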

Additional observations from a re-analysis of the deposited data

Results flagged for a closer look

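Of 97 measures over the 8 samples, 8 had a highest or lowest sample whose gap to the next, divided by the range, was above Dixon's 95% critical value. Chance gives about 1 in 20 for measures chosen without sight of the values. Many of the 97 were genes named for their spread, difference or steadiness in these samples. The number flagged can therefore not be set against that rate. Replicate 8 was apart in 4, replicate 1 in 2 and replicates 4 and 7 in 1 each.

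In replicate 1, Afap1l1 had a log2 CPM of 6.30, the next sample having -0.48, and the share of reads assigned to genes was 37.08%, the next being 51.93%. In replicate 4, the largest heavy-chain V segment took 81.9%, the next largest share being 32.5%. In replicate 7, the plasmacytoid dendritic cell list had a mean log2 CPM of 3.54, the next being 4.35.

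In replicate 8, Vcan was at a log2 CPM of 5.71 against 0.45 in the next sample, Ifitm1 at 6.4 against 1.57, and the macrophage and monocyte list at 6.47 against 5.80. Eif4a1, among the steadiest genes of the AO samples, was lowest in replicate 8 at 7.80, the next being 8.12. Replicate 8 is also the sample with both Xist and Y-linked transcripts, whose part in these values was not tested.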

How the results depend on the processing

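The 2721 genes called between E205 and AO were 1801 with a mean of at least 5 CPM, 3926 with DESeq2 (2703 shared), 2742 with DESeq2's size factors and 885 to 2921 on leaving out each sample, lowest without replicate 7. The 0 calls between AO55 and AO56 became 102 with DESeq2, 19 without a filter on low counts, 12 with the title number as a replicate block and 0 to 26 on leaving out each sample. The block used only 2 shared numbers, which do not pair the samples. The 168 genes with an SD of at least 1 were 340 at a mean of at least 1 CPM, 428 with the SD over all 8 samples and 150 to 184 on leaving out each sample. Component 1 of the AO samples held 46.2% over all 8 samples and 32.0 to 42.1% on leaving out each sample. The cause was not tested beyond what each setting changes.

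The correlation of Bcl6 with Jchain was -0.031 with DESeq2's size factors. On leaving out each sample it ran from -0.237 to 0.485, that of Bcl6 with Myc from -0.187 to 0.665, of component 1 with unaligned reads from -0.533 to 0.6996 and with the mitochondrial share from -0.030 to 0.841, and of component 2 with reads aligned to several places from -0.753 to 0.388, with unaligned reads from -0.628 to 0.689 and with the mitochondrial share from -0.699 to 0.138. None of the 11 relations passed adjustment in any setting. The number of samples, 2 of E205 and 6 of AO, limits the precision. Counts by list without replicates 7 and 8 and the TGACGTCA search were chosen after seeing the data.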

Other observations

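Slpi, a protease inhibitor of secretory and myeloid cells, was at 129, 468, 321, 83.8, 102 and 133 CPM in replicates 1 to 6 and at 249 and 1164 CPM in replicates 7 and 8. It fell into a group of 17 genes, of which only Slpi and Eaf2, an elongation factor partner of B cells, had a symbol, highest in replicate 2 and lowest in replicate 5.

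Among mitosis genes Ube2c, a ubiquitin-conjugating enzyme of the anaphase-promoting complex, was higher in E205 at 55.7 and 62.6 CPM against 17.9 to 37.0 CPM in the AO samples (edgeR adjusted p = 0.0243), while Rrm2, a ribonucleotide reductase subunit of DNA replication, was lower at 53.5 and 82.7 CPM against 87.4 to 210 CPM (-1.36, edgeR adjusted p = 0.0221). Each was the only call of edgeR in its list of 22 genes, no larger a share than the 9.72% of all genes higher and 6.10% lower. DESeq2 called 1 mitosis and 5 DNA replication genes. Without replicate 7 the adjusted p was 0.1 for Ube2c and 0.19 for Rrm2, and without replicate 8 it was 0.104 for Ube2c (edgeR).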
